A study of Arabidopsis thaliana with 18 samples.

Results

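AT3G58060 and AT3G07720 are 2 Arabidopsis genes known to respond to iron deficiency in roots, and each was followed through the probe set annotated to it alone, among 13286 genes so annotated. The pair was picked with differences between genotypes on these same arrays in view, so its levels and differences are a description and carry no test. The arrays held root RNA from seedlings grown in vitro for 8 days on 10 mM NH4NO3, a supply shared by every group. There were 18 Affymetrix arrays, 3 for each of 6 genotypes.

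The 5 altered genotypes change NRT1.1 (CHL1), a plasma membrane protein of root cells that both carries nitrate and senses it. In chl1-5 the gene is deleted, and chl1-9 carries an amino acid substitution. The labels name chl1-12 as a further allele without stating its change. T101A has an NRT1.1 in which the threonine T101 cannot be phosphorylated, and T101D one in which a residue that mimics phosphorylation takes its place. The wild type is col, the Columbia accession. NRT1.1 is not analysed here, as no probe set was named for it, so the genotypes rest on the labels. The labels give neither the genetic background and promoter of the T101A and T101D forms nor the number of independent lines or plants behind an array. They do not say that replicates were separate cultures, so errors measure the spread between these samples, which may be technical. In whole roots, fewer cells of a type and less RNA per cell cannot be told apart.

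AT3G58060 encodes MTP8, a member of the cation diffusion facilitator family, whose proteins move divalent metals out of the cytosol. MTP8 sits in the vacuolar membrane, where it loads manganese and iron into the vacuole, and it is known for protecting roots from manganese, which the iron transporter IRT1 also takes up when iron is short. AT3G07720 encodes a kelch-repeat protein whose molecular role is not settled, and its transcript is known to rise in iron-deficient roots. That response is driven by basic helix-loop-helix (bHLH) transcription factors, with FIT as its central activator in the root epidermis, and it raises iron reduction, iron uptake and the secretion of coumarins that mobilise iron. Nitrogen supply is known to touch on it, because nitrate uptake makes the medium around the root more alkaline and ammonium uptake acidifies it. Both genes lie on chromosome 3 in the RefSeq annotation of TAIR10.1, far apart from each other.

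The transcript of AT3G58060 was among the dimmest on the arrays in chl1-5 and at a low but higher level in every other genotype. Its intensity was 11.2, 5.44 and 6.66 on the chl1-5 arrays, against 44.8, 39.3 and 35.2 on the col arrays (replicates 1, 2 and 3). All 3 chl1-5 arrays lay under 16, the intensity added to each value before taking logs, and none came near the lowest col array. Mean intensity was 7.76 ± 3.03 in chl1-5 and 39.8 ± 4.79 in col (SD, n = 3 each). Values this dim are not resolved from one another, so no fold is given. On the log2(intensity + 16) scale, which understates the change of a dim probe set, the difference was -1.24 ± 0.20 (SE of the limma fit). It was -2.27 with 1 added in place of 16, and -0.53 with 64 added, so its size depends on the amount added. The groups did not overlap, as was the case for 21.4% of all 22746 probe sets in this comparison, while 2.18% were called by limma (adjusted p under 0.05). Because this contrast was among those that singled out the gene, nothing is read from these shares.

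In the other 4 lines AT3G58060 lay near the wild-type level. In chl1-9 its intensity was 65.3, 58.9 and 38.3, a mean of 54.2 ± 14.1. In chl1-12 it was 37.8, 41.7 and 49.2, a mean of 42.9 ± 5.83. In T101A it was 35.2, 52.0 and 27.3, a mean of 38.2 ± 12.6, and in T101D 71.2, 46.9 and 36.6, a mean of 51.6 ± 17.7 (SD, n = 3 each). Each of these groups overlapped col, with differences from col of 0.31 for chl1-9, 0.08 for chl1-12, -0.06 for T101A and 0.25 for T101D, each with an SE of 0.20 on the log2 scale. The share of all probe sets called against col was 3.39% for chl1-9, 1.5% for chl1-12, 2.23% for T101A and 0.255% for T101D. Single arrays moved these small values widely. With 1 array left out, the difference ranged from 0.20, without chl1-9 replicate 1, to 0.49, without chl1-9 replicate 3, in chl1-9. In T101D it ranged from 0.05, without T101D replicate 1, to 0.41, without T101D replicate 3. In T101A it ranged from -0.24, without T101A replicate 2, to 0.08, without T101A replicate 3, and in chl1-12 from 0.0009, without chl1-12 replicate 3, to 0.14, without col replicate 1 or chl1-12 replicate 1. The T101A value also moved without T101A replicate 1 (-0.04), col replicate 1 (-0.0008) or col replicate 3 (-0.12), as did the chl1-12 value without col replicate 3 (0.02).

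**Figure D1:**
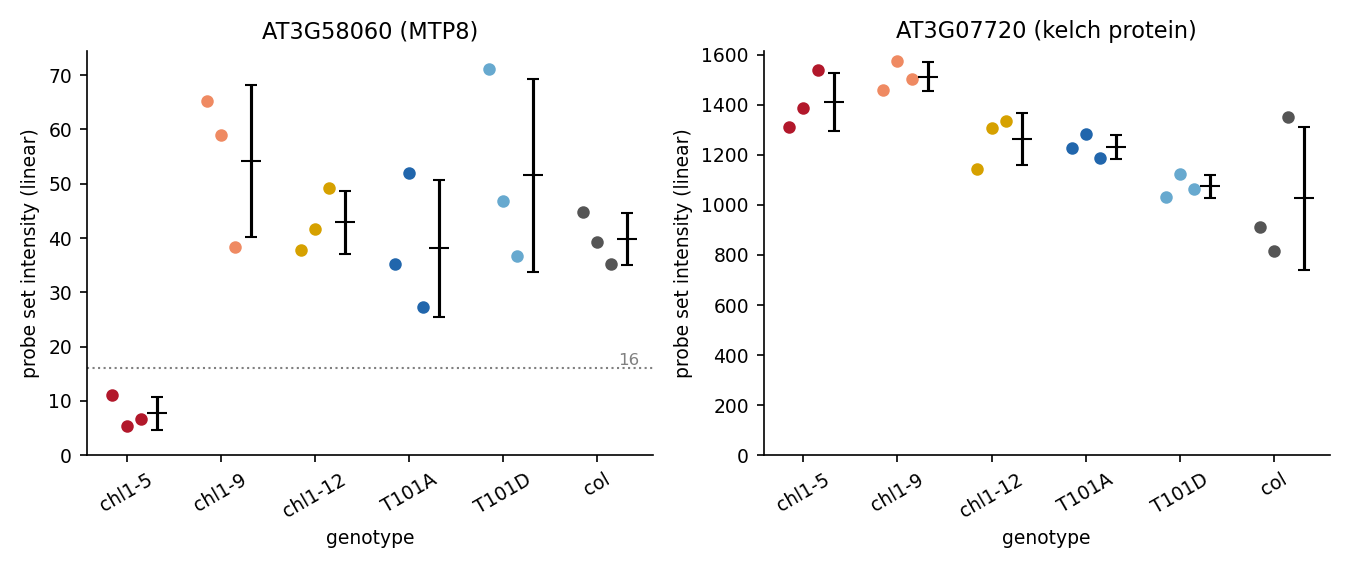
Probe set intensity (linear scale) of AT3G58060 (left) and AT3G07720 (right) on each of 18 arrays, with genotypes along the horizontal axis, one point per array and the mean ± SD (n = 3) in black. The 3 chl1-5 arrays of AT3G58060 lie between 5.44 and 11.2, under the dotted line at 16, and col replicate 3 stands above the other col arrays for AT3G07720 at 1350.

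Ordered by mean on the log2 scale, AT3G58060 was lowest in chl1-5, followed by T101A, col, chl1-12, T101D and chl1-9. The step between chl1-5 and T101A, 1.17, was the only one in this order across which the arrays did not overlap, and the steps between neighbours above it were between 0.06 and 0.17. The 15 arrays outside chl1-5 ranged between 27.3 and 71.2. In the ranking of all probe sets of an array, AT3G58060 stood at percentiles 11.8 to 15.1 in chl1-5 and 22.3 to 34.6 elsewhere. The probe set was thus dim even where it was highest, and the arrays of neighbouring genotypes outside chl1-5 overlapped.

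Set against the deletion mutant, each of the other 4 lines had more AT3G58060 transcript on all of its arrays. The difference from chl1-5 was 1.55 for chl1-9, 1.31 for chl1-12, 1.17 for T101A and 1.48 for T101D, each with an SE of 0.20 (log2 of intensity + 16). These 4 values share the chl1-5 arrays, and their size depends on the amount added. They lay between 2.17 and 2.67 with 1 added and between 0.50 and 0.71 with 64 added. Arrays did not overlap for 16.3% of all probe sets between chl1-9 and chl1-5, and for 11.1% with chl1-12, 15.7% with T101A and 16.7% with T101D. The share of all probe sets called was 0.237% for chl1-9, 0.0396% for chl1-12, 0.0044% for T101A and 0.435% for T101D. Between the T101 forms, AT3G58060 averaged 38.2 in T101A and 51.6 in T101D, a difference of -0.31 ± 0.20 with overlapping arrays. Without T101D replicate 1 it was -0.11 and without T101A replicate 3 it was -0.16, while without T101A replicate 2 it was -0.49 and without T101D replicate 3 it was -0.48.

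The 20 protein-coding loci nearest to AT3G58060 in locus order, 10 on each side, were looked at after its values were seen. Of these, 13 were measured, and 0 of the 13 passed limma's adjusted threshold in chl1-5 against col, with differences between -0.58 and 0.35. AT3G58050, the locus just before it, was at -0.08 and AT3G58070, the locus just after it, at -0.53, with adjusted p of 0.832 and 0.57. In chl1-9, 1 of the 13 passed, AT3G58020 at 1.12 (limma adjusted p = 0.0406), and in the other 3 lines 0 passed. AT3G58020 averaged 10.8 over all arrays, under 16, where differences are not resolved. Of all probe sets, 2.18% were called in chl1-5 and 3.39% in chl1-9, so nothing particular to this region is read from these counts.

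AT3G07720 was a bright transcript in all genotypes and varied within a narrow range, between 817 and 1574 over the 18 arrays. It was highest in the chl1-9 and chl1-5 mutants. In chl1-9 its intensity was 1458, 1574 and 1504, a mean of 1512 ± 58.6, against 912, 817 and 1350 in col, a mean of 1026 ± 284 (SD, n = 3 each). The difference was 0.59 ± 0.14 (log2, SE), and no chl1-9 array was as low as the highest col array. Arrays did not overlap for 18.3% of all probe sets in chl1-9 against col. In chl1-5 the intensity was 1311, 1388 and 1539, a mean of 1413 ± 116, with a difference from col of 0.49 ± 0.14. Here 1 col array, replicate 3, lay inside the chl1-5 range.

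The remaining lines lay between these mutants and the wild type. AT3G07720 measured 1143, 1308 and 1335 in chl1-12, a mean of 1262 ± 104, and 1227, 1283 and 1186 in T101A, a mean of 1232 ± 48.3. It measured 1032, 1124 and 1065 in T101D, a mean of 1074 ± 47.0 (SD, n = 3 each). All 3 groups overlapped col. Relative to col, the difference was 0.32 for chl1-12, 0.29 for T101A and 0.10 for T101D (log2, SE 0.14 each).

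The size of these values depended on a single wild-type array. Col replicate 3 was at 1350, while the other 2 col arrays averaged 864. Without it, the difference was 0.70 for chl1-5, 0.80 for chl1-9, 0.54 for chl1-12, 0.51 for T101A and 0.31 for T101D (SE 0.10 each). With any 1 of the 6 arrays of a comparison left out, the difference ranged between 0.34 and 0.70 in chl1-5 and between 0.44 and 0.80 in chl1-9. It ranged between 0.18 and 0.54 in chl1-12 and between 0.15 and 0.51 in T101A. In T101D the range was -0.05 to 0.31, and the sign turned without col replicate 2. The T101D value was 0.03 without col replicate 1 and 0.06 without T101D replicate 2. In the other 4 lines the lowest value came without col replicate 2.

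In order of the log2 mean, AT3G07720 was lowest in col, followed by T101D, T101A, chl1-12, chl1-5 and chl1-9. Neighbours in this order overlapped in all steps but the one between T101A and T101D. The T101A arrays all lay above the T101D arrays, with a difference of 0.20 ± 0.14. Non-overlap was common in that comparison, at 11.5% of all probe sets, while 0.0352% were called, so nothing particular to the gene is read from it. Against chl1-5, the difference was -0.39 ± 0.14 in T101D and -0.19 ± 0.14 in T101A, without overlap of the arrays in both cases. Given the shares of non-overlapping probe sets above, neither sets the gene apart. The values of chl1-9 (0.10) and chl1-12 (-0.16) against chl1-5 came with overlapping arrays. Of the 20 loci nearest to AT3G07720, 11 were measured and 0 passed in any of the 5 comparisons with col.

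The 2 genes thus had different patterns. AT3G58060 stood apart in chl1-5 alone, and in that line AT3G07720 had its second highest level. Across the 18 arrays their log2 values had a Pearson r of -0.25, a description that mixes genotype differences with array-to-array scatter. The pair was picked in view of differences between genotypes, a choice in which the size of the scatter may have counted. How the 2 genes varied together within genotypes was tested. Deviations from the genotype means had a Pearson r of -0.10 (two-sided exact permutation of arrays within genotypes, p = 0.596) and a Spearman rho of -0.09 (p = 0.718, exact permutation). Leaving out the arrays farthest from the median of AT3G58060, chl1-5 replicates 2 and 3, gave an r of -0.05. With the replicate number removed as well, r was 0.29, for which no p was computed. No joint movement of the 2 transcripts within genotypes was detectable with 18 arrays when the replicate number was not taken into account.

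**Figure D2:**
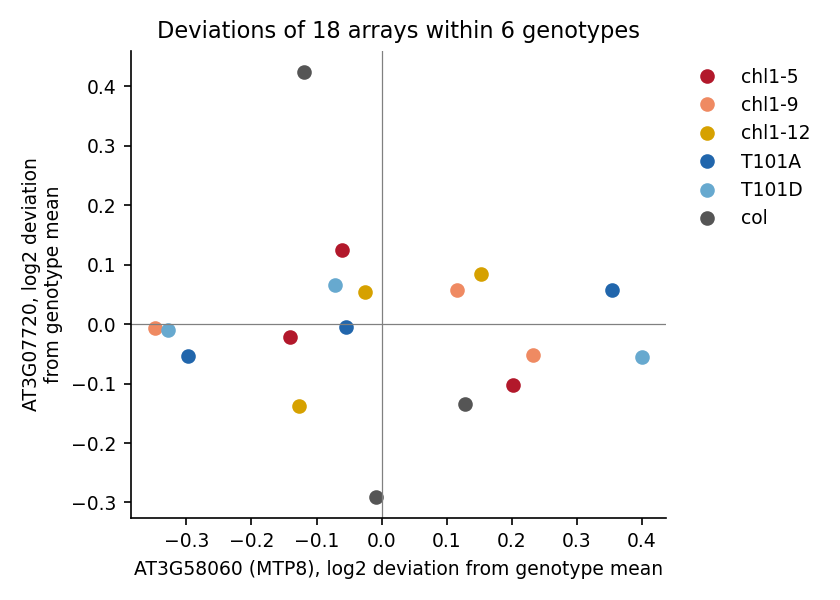
Deviation of each of 18 arrays from the mean of its genotype, in log2(intensity + 16), for AT3G58060 on the horizontal axis and AT3G07720 on the vertical axis, coloured by genotype. The deviations have an r of -0.10, and col replicate 3 is the highest point at 0.42 on the vertical axis.

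Genes whose log2 pattern over the 18 arrays was most like each of the 2 genes were taken from probe sets of 1 gene with a mean intensity of at least 100. For AT3G58060, out of 7516 candidates, the 5 highest correlations belonged to AT1G10180 (r = 0.85), AT4G39160 (0.79), SERPIN1 (0.78), AT1G68400 (0.77) and AT4G27480 (0.76). SERPIN1 encodes a protease inhibitor and AT1G68400 a leucine-rich-repeat receptor kinase. All 5 had their lowest mean in chl1-5, but over a smaller range: AT4G39160 averaged 85.5 ± 22.8 in chl1-5 and 142 ± 15.6 in col, and SERPIN1 1364 ± 48.1 in chl1-5 and 1580 ± 41.0 in col (SD, n = 3 each). A low mean in chl1-5 follows largely from choosing genes by r with AT3G58060, so it is not read as a result. Within genotypes the r of these genes with AT3G58060 was between 0.12 and 0.50.

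For AT3G07720 the 5 most similar genes were AT3G13040 (r = 0.86), AT2G44380 (0.85), AT4G20820 (0.84), AT2G43540 (0.83) and OCT1 (0.83). AT2G44380 encodes a C1-domain protein, AT4G20820 a berberine-bridge-like oxidoreductase, and OCT1 a transporter of carnitine and organic cations. Their r with AT3G07720 within genotypes was between 0.47 and 0.75. The high col replicate 3 was shared. The choice by r over the same arrays favours genes that are high on that array, and also a high r within genotypes. AT2G44380 measured 934, 1149 and 1703 on col replicates 1, 2 and 3, and AT4G20820 156, 128 and 238, so replicate 3 was the highest col array for both. AT4G20820 averaged 303 ± 8.21 in chl1-5 and 258 ± 8.45 in chl1-9, against 174 ± 57.2 in col. All these r values describe arrays that share genotypes and scaling, and carry no test.

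To place the pair within its pathway, 126 genes of iron and manganese biology were listed, and 34 of them had a probe set of their own here. Among the main actors, IRT1, FRO2, FIT, NRAMP1, the nicotianamine synthases and the ferritins are not analysed here, since no probe set was named for them. The same holds for all 15 genes listed for root iron uptake and the 6 kelch-containing nitrile-specifier genes. Of the 34 measured genes, 3 rose and 0 fell in chl1-5 and in chl1-9, 2 rose and 0 fell in chl1-12 and in T101A, and 0 passed in T101D (limma adjusted p under 0.05 over all probe sets). Over all probe sets, the share that rose was 1.35% for chl1-5, 1.75% for chl1-9, 0.941% for chl1-12, 1.52% for T101A and 0.171% for T101D. The shares that fell were 0.822% for chl1-5, 1.64% for chl1-9, 0.558% for chl1-12, 0.712% for T101A and 0.0835% for T101D. The 10 calls came from 3 genes, MTP11, bHLH115 and UGT72E1, and all rest on the same col arrays. UGT72E1 was listed as a glucosyltransferase of the phenylpropanoid pathway and acts on aldehyde precursors of lignin, so its calls are not specific to iron or manganese. The lists were drawn up with earlier results of these data known, so these counts are not independent of them. An unadjusted limma p under 0.05 was reached by 12 of the 34 for T101A, 9 for chl1-9, 7 each for chl1-5 and chl1-12, and 6 for T101D. Of all 22746 probe sets, 3648 reached it for T101A, 3535 for chl1-9, 3071 for chl1-5, 2515 for chl1-12 and 2420 for T101D. Between T101A and T101D 0 of the 34 passed, and 3 were under an unadjusted 0.05, beside 1486 of all probe sets. The median difference of the 34 genes was 0.06 for chl1-5, 0.12 for chl1-9, 0.03 for chl1-12, 0.05 for T101A and 0.03 for T101D, beside medians of all probe sets between -0.03 and -0.0005.

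MTP11, a manganese transporter of the same family as AT3G58060 that acts in the Golgi and nearby compartments, rose in chl1-5, chl1-9 and chl1-12. Its intensity was 3108, 3319 and 3084 in chl1-5, against 1813, 1882 and 2219 in col. Means were 3170 ± 129 in chl1-5, 2644 ± 138 in chl1-9, 2955 ± 394 in chl1-12 and 1972 ± 217 in col (SD, n = 3 each). The rise was 1.61-fold in chl1-5 (0.69 ± 0.11 log2, SE, limma adjusted p = 0.0035), 1.49-fold in chl1-12 (adjusted p = 0.0137) and 1.34-fold in chl1-9 (adjusted p = 0.0481). T101A averaged 2510 ± 189 and T101D 2556 ± 178, with all arrays above col but adjusted p of 0.122 and 0.195. Non-overlap with col was seen at 17.3% of all probe sets for chl1-12, 21.6% for T101A and 16.4% for T101D. The chl1-9 call was lost without any 1 of the chl1-9 arrays or without col replicate 1 or 2 (limma adjusted p between 0.0721 and 0.154). The chl1-12 call was lost without chl1-12 replicate 1 or 3 or col replicate 1 or 2 (limma adjusted p between 0.0585 and 0.074). In chl1-5 the call held with any 1 of these arrays left out, so in this line MTP11 was raised while AT3G58060 of the same family had its lowest level.

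The other 6 listed and measured members of the family, MTP2, MTP6, MTP7, MTP9, MTP10 and MTP12, did not pass in any line. Their differences ranged between -0.42, for MTP9 in chl1-9, and 0.27, for MTP2 in chl1-5. Of the 7 listed and measured members, the called gene was therefore MTP11 alone in chl1-5, chl1-9 and chl1-12. AT3G58060, also of this family, is not among the 7, because it was described without a test, and it was lowest in chl1-5.

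Of the regulators of the iron deficiency response, 10 of 21 were measured and bHLH115 was the one that passed. It encodes a transcription factor that activates the genes of other bHLH factors of the pathway and of the repressor PYE when iron is short. bHLH115 measured 2672, 2364 and 2472 in chl1-5, 3016, 2662 and 2867 in chl1-9, 2560, 2400 and 2480 in T101A and 1963, 1797 and 1804 in col. It rose 1.35-fold in chl1-5, 1.53-fold in chl1-9 and 1.33-fold in T101A (limma adjusted p = 0.0135, 7.58e-04 and 0.0157). In chl1-12 it averaged 2317 ± 105 (adjusted p = 0.083) and in T101D 2196 ± 160 (adjusted p = 0.302), in both cases with every array above those of col. Non-overlap with col was seen at 17.3% of all probe sets for chl1-12 and 16.4% for T101D. The chl1-5 and T101A calls were both lost without col replicate 2 or 3, and each without replicate 1 or 3 of its own line (limma adjusted p between 0.0527 and 0.0719).

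PYE and bHLH101 did not pass in any line. PYE was at 208 ± 5.87 in chl1-5, 196 ± 17.2 in chl1-9, 212 ± 32.7 in chl1-12, 221 ± 31.9 in T101A, 214 ± 22.5 in T101D and 208 ± 24.7 in col. bHLH101, a factor that pairs with FIT, was at 93.2 ± 7.63 in chl1-9 and 67.8 ± 22.0 in col, with 0.41 ± 0.21 (log2, SE) and a limma adjusted p of 0.366. The next genes were picked after their values were seen. ILR3, bHLH104, bHLH34 and bHLH121, of the same or related groups as bHLH115, lay between -0.27 and 0.19 in all 5 comparisons. BTSL1 (AT1G74770), a ubiquitin ligase that restrains the response, was at 0.32 in chl1-5 (adjusted p = 0.0908) and 0.33 in T101A (adjusted p = 0.0751). A second, dimmer probe set of this gene gave 0.28 and 0.46.

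**Figure D3:**
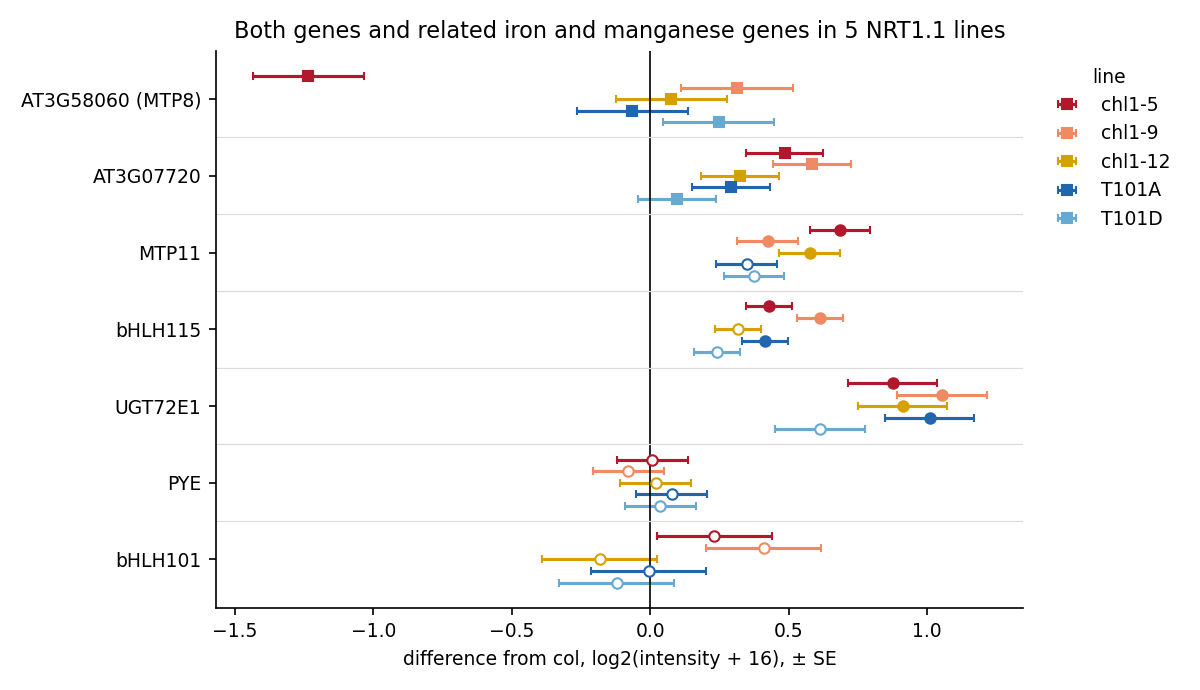
Difference from col (log2 of intensity + 16, ± SE of the limma fit, 3 arrays per genotype) in the 5 NRT1.1 lines for AT3G58060, AT3G07720 and 5 related genes. Squares mark the 2 genes that were described without a test, filled circles values with a limma adjusted p under 0.05 and open circles values that did not pass, and AT3G58060 in chl1-5 lies far left at -1.24 while its relative MTP11 lies at 0.69.

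Among the 5 measured genes of coumarin synthesis and secretion, UGT72E1 passed in 4 lines. It was listed there as a glucosyltransferase of the phenylpropanoid pathway, and its enzyme acts on aldehyde precursors of lignin. It averaged 1560 ± 303 in chl1-5, 1763 ± 298 in chl1-9, 1594 ± 261 in chl1-12, 1696 ± 128 in T101A, 1291 ± 188 in T101D and 833 ± 48.2 in col (SD, n = 3 each). The rise was between 1.84-fold and 2.08-fold in the first 4 lines (limma adjusted p between 0.0018 and 0.0097). Without chl1-12 replicate 1, the chl1-12 value did not pass (adjusted p = 0.0509). In T101D all arrays were above those of col, with 0.61 ± 0.16 (log2, SE) and a limma adjusted p of 0.147. Arrays did not overlap for 16.4% of all probe sets in that comparison. AT3G13610, picked after its values were seen, is the gene of feruloyl-CoA 6'-hydroxylase F6'H1, an enzyme on the path to the coumarin scopoletin. It averaged 5050 in chl1-5 and 5001 in col, a difference of 0.01 ± 0.18 (log2, SE).

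In the 7 other genes known to rise in iron-deficient roots, the 2 genes of vacuolar iron transport, the 2 of manganese transport and the zinc transporter ZIP9, 0 passed in any of the 5 lines. The values named next were chosen after they were seen. NRAMP5 reached 47.6 ± 12.6 in chl1-9, against 13.6 ± 7.13 in col (limma adjusted p = 0.0548). This col mean lies under 16, so the size of the NRAMP5 difference is not resolved. Among the regulators, AT1G47400, which encodes the iron deficiency signalling peptide IMA1, averaged 30.8 in chl1-5, 33.4 in chl1-12 and 35.3 in T101A, against 61.5 in chl1-9, 77.4 in T101D and 61.5 in col, with adjusted p of 0.155 or more in all 5 comparisons. AT1G73120 averaged 693 in chl1-5 and 349 in col, with a wide scatter (1.03 ± 0.34 log2, SE, adjusted p = 0.172).

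**Figure D4:**
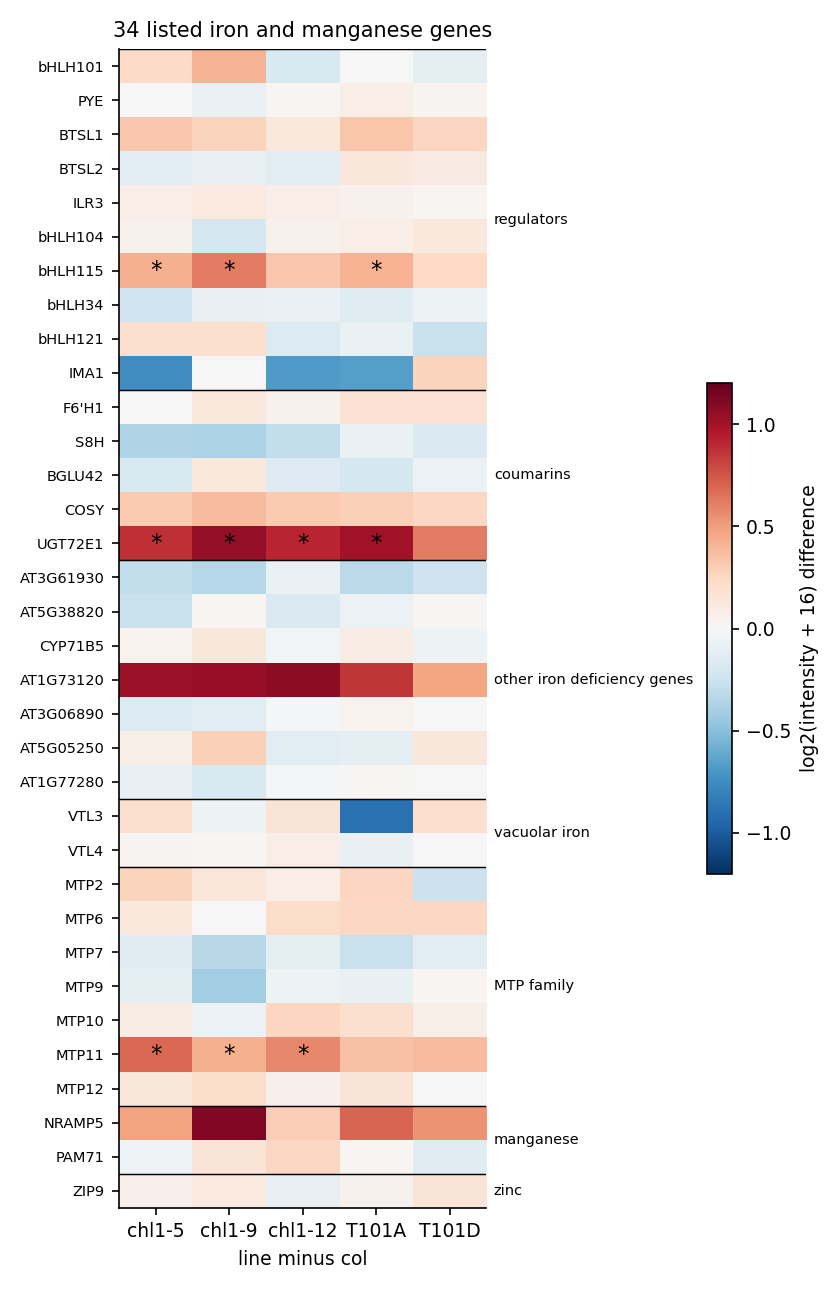
Difference from col (log2 of intensity + 16, colour scale) of the 34 measured iron and manganese genes in the 5 NRT1.1 lines, grouped by list, with published names beside each row. Asterisks mark the 10 values with a limma adjusted p under 0.05, all of them higher than col and all in MTP11, bHLH115 and UGT72E1.

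Sums of tissue markers and a control ratio differed between genotypes. The markers were listed with earlier results of these data known, so their sums are no independent measure of cell content. The root hair sum weighs bright markers most, such as PRX44, which averaged 2258 in col and 3691 in T101A. The summed intensity of 6 measured root hair markers of 9 was 8151 to 9779 in chl1-5, 6256 to 8155 in chl1-9, 7605 to 8644 in chl1-12, 8697 to 9770 in T101A, 7746 to 8646 in T101D and 4828 to 6000 in col. All 5 lines lay above col in this sum, which is also the direction of the mean of AT3G07720, MTP11, bHLH115 and UGT72E1 in each line. The 5 comparisons use the same col arrays, so a shared direction across lines is not repeated evidence. The single markers were less uniform. Of the 6, 5 passed for T101A, 4 for chl1-5, 2 each for chl1-9 and chl1-12, and 1 for T101D (limma adjusted p under 0.05). The share of all probe sets called was 2.23% for T101A, 2.18% for chl1-5, 3.39% for chl1-9, 1.5% for chl1-12 and 0.255% for T101D. EXPA7 did not pass in any line and its difference from col was -0.07 in chl1-9 (log2). AT3G54580 was at 0.08 in T101D. The other differences of the markers from col were above 0. The 4 measured green shoot markers of 11 summed to 1666 to 2361 in chl1-5, 1365 to 2170 in chl1-9, 1302 to 2379 in chl1-12, 1295 to 1738 in T101A, 698 to 1099 in T101D and 1816 to 2662 in col. T101A and T101D lay below col in this sum. Markers of endodermis, stele, meristem and non-hair epidermis are not analysed here. For the GAPDH controls, the 5' probe set divided by the 3' one gave 0.806 to 0.923 in chl1-5, 0.729 to 0.828 in chl1-9, 0.788 to 0.981 in chl1-12, 0.845 to 0.944 in T101A, 0.797 to 0.942 in T101D and 0.740 to 0.797 in col. The chl1-5 and T101A ratios lay above those of col. The part of these sums and ratios in the values above was not tested.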

How the data were processed

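The authors deposited 1 table of intensity values, linear and with 22810 probe sets, for 18 arrays. The sources used here do not give the summarisation, background correction or genome build. From the values, every array had been scaled to a mean of 500 after trimming 2% of the probe sets at each end, which hides changes in total messenger RNA per root. Here 64 control probe sets were left out and values were taken as log2(intensity + 16). A limma 3.58.1 model (R 4.3.3) with 1 coefficient per genotype was fitted to all 22746 other probe sets, with Benjamini-Hochberg adjustment per comparison and calls at an adjusted p under 0.05. The fit was tested on simulated data.

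Gene names came from the platform annotation, matched by gene ID to a RefSeq table (TAIR10.1). Of the tested probe sets, 13513 had 1 gene, 503 several and 8730 none. A gene with several probe sets stood by its brightest. Names beyond these tables, such as MTP8, are published names.

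The members, lists and tests were chosen with earlier results of these data known. Named genes were the 2 members, the 5 genes most like each, every called gene of the lists, and listed genes tied most directly to the members, where measured. Other listed genes were also named, some of them after their values were seen, as said where they appear. Comparisons with chl1-5 and the neighbouring loci were added after the values were seen. The number of arrays limits the precision. Python 3.11.15, numpy 2.4.6, pandas 2.3.3, scipy 1.17.1 and matplotlib 3.10.9 were used.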

Additional observations from a re-analysis of the deposited data

How the results depend on the processing

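The alternatives were a pseudocount of 1 or 64, quantile normalization, median centring, array weights, a filter on the lowest quartile, the replicate number as a block, fits of the 6 arrays compared and leaving out each array. Of 166 recomputed differences of AT3G58060 and AT3G07720, 164 moved by less than the larger group SD. The exceptions were AT3G58060 in chl1-5 against col, at -2.27 with a pseudocount of 1 and -0.53 with 64, since the pseudocount weighs more on a dim probe set. The replicate block, the quartile filter and the fits of 6 arrays leave these differences unchanged by design, yet count among the 164. For AT3G07720 the SD is a loose measure, at 0.38 in col on the log2 scale. Its T101D difference from col turned from 0.10 to -0.05 without col replicate 2 and still counted as moved by less. The 10 calls of listed genes became 20 with the replicate block and 2 in the fits of the 6 arrays compared, where fewer arrays estimate the spread. With 1 array left out they ranged between 6, without col replicate 2, and 10. Over 140 recomputed calls, 111 were kept. UGT72E1 kept its call in all 14 alternatives in chl1-9 and T101A, while MTP11 lost its call in 9 of 14 in chl1-9. The correlation within genotypes was -0.18 to 0.09 with 1 array left out, and 0.29 with the replicate block. Deviations over all probe sets correlated at 0.01 to 0.14 (median 0.063) in 45 pairs of same-numbered arrays, and at -0.15 to 0.06 (median -0.035) in 90 pairs of different number. Same-numbered arrays thus deviated together slightly, with a positive correlation in all 45 pairs, a hint from the data that the labels do not explain. The main fit and the permutation assumed no pairing, because not every pair exceeded 0.1. That rule does not show that pairing was absent. Both the number of calls and the correlation within genotypes changed with the replicate block, as given above. The pseudocounts for comparisons with chl1-5 were chosen after seeing the data. Below an intensity of about 16, differences cannot be resolved.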
